A study of Mus musculus with 3 samples.

Results

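The cytokine genes Csf2, Tnf, Il1rn, Il33 and Cxcl5 were followed in mouse pancreatic tumour cells. They were chosen by symbol as cytokine genes reported for such cells, and they are 5 of 11886 genes and 7 of 17910 transcripts in the authors' deposited table. RNA was measured in 3 groups: cells sorted from tumours in SCID mice (strain B6.CB17-Prkdcscid/SzJ, which lack T and B cells), cells sorted from tumours in wild-type C57BL/6 (WT) mice, and the line that formed the tumours, mT3-2D-GFP, kept in culture. The line comes from a KPC mouse, an engineered model of pancreatic cancer, is of C57BL/6 origin and carries a green fluorescent protein (GFP) by which the tumour cells were sorted. Each tumour library was a pool of equal RNA amounts, from 5 tumours in SCID mice and from 6 in WT mice, and with 1 library per group the variation from tumour to tumour is not known. All tumours came from this 1 line, and no source used here gives the age or sex of the mice.

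The table holds fold changes between libraries and no level per library. Values are therefore given as differences, SCID minus WT, SCID minus line and WT minus line, on a log2 scale, where 1 is a 2-fold difference. The log base is not in the file and was taken as log2 on account of DESeq2, which is listed in the submitters' processing notes and reports that scale. All values below are from the authors' deposited table. A value named for a gene is the mean of its transcripts. No difference was tested, none has a replicate check, and the depth of each single library is not known. The values had a part in the choice of the 5 genes and are a description of these 3 libraries. In bulk RNA, fewer cells of a type and less RNA per cell cannot be told apart.

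Csf2 encodes GM-CSF, a growth factor that drives the growth and activation of myeloid cells. Tnf encodes tumour necrosis factor, made mainly by macrophages and other immune cells and also by some tumour cells. It acts on the receptors Tnfrsf1a and Tnfrsf1b. Il33 and Il1rn belong to the interleukin-1 family. Il33 is a nuclear protein of epithelial and stromal cells that signals through Il1rl1 once released, and Il1rn is an antagonist that occupies the interleukin-1 receptor Il1r1 without signalling. Cxcl5 encodes a chemokine that attracts neutrophils through Cxcr2.

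Il1rn and Il33 each had 2 transcripts in the table that start at different places, and their values diverged, so the 250 bases before each start are shown first. They are RefSeq sequence of GRCm38.p6, forward strand for both genes, and capitals mark matches to motifs searched on both strands. The motifs were AP-1 (TGANTCA), C/EBP (TTNNGNAA), the interferon motif GAS (TTCNNNGAA) and the NF-kB consensus.
Il1rn upstream start (NM_031167), chr2:24336610-24336859: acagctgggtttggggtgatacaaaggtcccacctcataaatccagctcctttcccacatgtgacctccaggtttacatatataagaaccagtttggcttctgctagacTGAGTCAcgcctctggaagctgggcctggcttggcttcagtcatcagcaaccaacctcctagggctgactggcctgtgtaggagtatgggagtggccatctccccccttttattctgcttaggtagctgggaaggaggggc
Il1rn downstream start (NM_001039701), chr2:24345121-24345370: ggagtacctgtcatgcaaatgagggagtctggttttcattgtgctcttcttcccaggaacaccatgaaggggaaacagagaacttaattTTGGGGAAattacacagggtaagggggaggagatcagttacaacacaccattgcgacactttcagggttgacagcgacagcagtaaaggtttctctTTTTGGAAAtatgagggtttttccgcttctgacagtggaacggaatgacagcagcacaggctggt
Il33 upstream start (NM_133775), chr19:29924863-29925112: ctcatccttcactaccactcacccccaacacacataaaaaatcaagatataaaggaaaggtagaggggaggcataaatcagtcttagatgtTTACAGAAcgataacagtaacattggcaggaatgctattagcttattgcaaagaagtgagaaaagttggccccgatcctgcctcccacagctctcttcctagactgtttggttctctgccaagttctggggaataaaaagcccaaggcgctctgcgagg
Il33 downstream start (NM_001164724), chr19:29945540-29945789: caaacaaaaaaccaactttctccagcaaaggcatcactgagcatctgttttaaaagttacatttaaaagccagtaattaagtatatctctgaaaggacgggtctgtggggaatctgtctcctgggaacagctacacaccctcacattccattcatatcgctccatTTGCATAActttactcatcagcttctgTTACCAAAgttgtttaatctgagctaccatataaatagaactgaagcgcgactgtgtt
The upstream Il1rn window held 1 AP-1 match, TGAGTCA, that begins 141 bases before the start, and no match to the other motifs. The downstream Il1rn window held 3 C/EBP matches, of which the pair at 65 and 64 bases before the start overlap each other, and no AP-1 match. GENCODE vM21 places the start of NM_001039701 61 bases upstream of the one used, so that pair spans the GENCODE start. The upstream Il33 window held 1 C/EBP match and the downstream one 2. None of these 4 windows held an NF-kB or a GAS match. Of 32851 mouse promoters searched in the same way, 6.75% held an AP-1 match, 36.8% a C/EBP match, 7.02% a GAS match and 7.25% an NF-kB match. The windows of Csf2 and Tnf held 1 and 2 C/EBP matches and none of the other motifs. For Csf2 the RefSeq start used for the window lies 232 bases upstream of the start that GENCODE vM21 gives. The 232 bases directly before that GENCODE start were therefore not searched. Cxcl5 was not among the promoters searched. A match is a run of letters only.

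Many cytokine mRNAs are short-lived because proteins such as Zfp36 bind repeats of ATTTA (with U for T in the RNA) in their 3′ untranslated region and bring about their decay. Csf2 and Tnf are the textbook cases, and their densest sites are shown, with the repeats in capitals, from GENCODE vM21 transcripts.
Csf2 (NM_009969, bases 230 to 259 of the 3′ untranslated region): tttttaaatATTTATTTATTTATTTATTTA
Tnf (NM_013693, bases 437 to 466 of the 3′ untranslated region): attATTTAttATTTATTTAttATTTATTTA
Csf2 had 9 such repeats in 317 bases (28.4 per 1000 bases) and Tnf 8 in 764 bases (10.5 per 1000 bases). Cxcl5 had 5 in 1111 bases, both Il33 transcripts had 3, and both Il1rn transcripts had 0. Of 15650 coding transcripts of the table that were searched, 6.89% had at least as many repeats as Csf2 and 8.81% at least as many as Tnf. The same shares were 19.3% for Cxcl5 and 34.2% for Il33, and 10399 of the 15650 had any repeat.

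Csf2, Tnf and Cxcl5 were higher in both pools of sorted tumour cells than in the cultured line, and Il1rn was lower. Csf2 stood at 1.85 for SCID minus line (3.60-fold) and at 1.48 for WT minus line (2.78-fold). That placed it 31st from the top of 11886 genes in the SCID pool and 160th in the WT pool. Tnf stood at 1.03 for SCID minus line (2.04-fold) and at 1.68 for WT minus line (3.21-fold), and Cxcl5 at 1.10 (2.14-fold) and 1.27 (2.41-fold). Tnf was thus farther from the line in the WT pool and Csf2 in the SCID pool. For Cxcl5 the pools differed by -0.17 for SCID minus WT, and by -0.33 once a trend with GC content and length over all genes was removed.

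Il1rn was at -1.02 for SCID minus line (2.03-fold lower) and at -0.66 for WT minus line (1.58-fold lower). Il33 stayed near the line, at 0.10 in the SCID pool and at -0.30 in the WT pool (0.14 and -0.18 without the GC and length trend). At 2-fold or more, in the SCID pool 3 of the 5 genes were above the line, against 3.65% of all genes, and 1 was lower, against 2.62%. That 1 gene is Il1rn, which was inside 2-fold without the GC and length trend (-0.95) and on its transcript NM_001039701 alone (-0.85). In the WT pool 3 of 5 were higher, against 4.12% of all genes, and 0 were lower, against 2.03%. Since the genes were chosen with these values known, the counts are not evidence about cytokine genes. The comparisons with the line share that 1 library, so the values of the pools are not independent of each other.

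**Figure D1:**
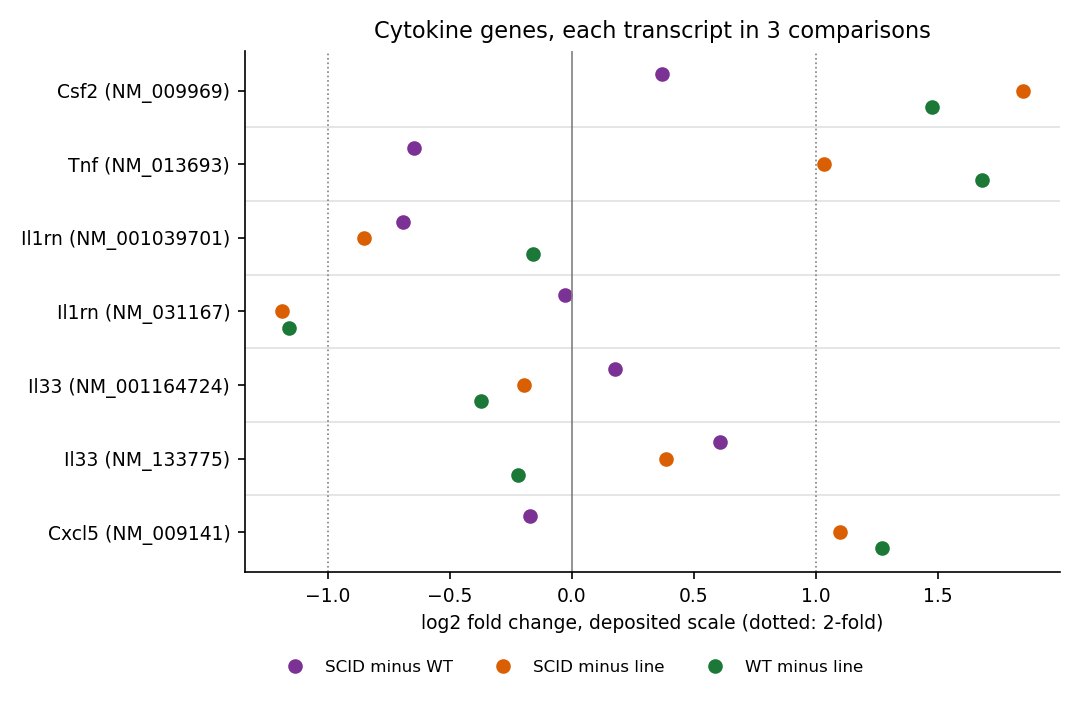
Each row is a transcript of the 5 cytokine genes and each point its log2 fold change in 1 of 3 comparisons (1 library per group, no error bars; dotted lines mark 2-fold). Csf2, Tnf and Cxcl5 lie at 1.03 or above against the line in both pools, while the Il1rn transcript NM_031167 lies at -1.19 and -1.16.

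Between the hosts no member reached 2-fold, and the 5 genes fell on both sides of 0. Il33 and Csf2 were higher in SCID than in WT, at 0.39 (1.31-fold) and 0.37 (1.29-fold). Tnf was 1.57-fold lower in the SCID pool, at -0.65, Il1rn was at -0.36 and Cxcl5 at -0.17. The gene median was -0.004 over all genes, and in rank Il33 was 85th and Csf2 107th from the top, and Tnf 102nd and Il1rn 318th from the bottom. Over all genes, 0.0168% were higher and 0.303% lower by 2-fold or more in the SCID pool than in the WT pool. For scale, transcripts of the same gene had a pooled SD of 0.22 in this comparison, 0.33 for SCID minus line and 0.31 for WT minus line, which is a spread between transcripts and not between mice.

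**Figure D2:**
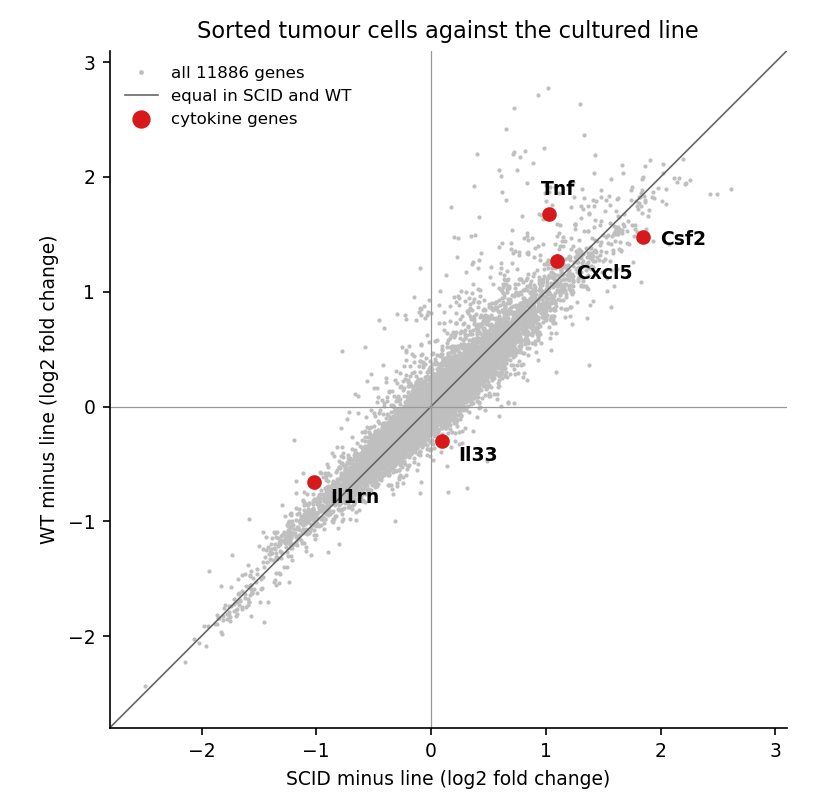
Each point is a gene, with SCID minus line on the x axis and WT minus line on the y axis, both as log2 fold changes, and the diagonal marks equal values in the pools. Csf2 (1.85 and 1.48) and Il33 (0.10 and -0.30) lie below the diagonal, and Tnf (1.03 and 1.68), Il1rn (-1.02 and -0.66) and Cxcl5 (1.10 and 1.27) above it.

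The lower mean of Il1rn against the line hid a difference between its transcripts. NM_031167, from the upstream start, lies on chr2:24336860-24351491 and encodes 159 residues. It was 2.28-fold lower than the line in the SCID pool (-1.19) and 2.24-fold lower in the WT pool (-1.16), and the hosts were nearly equal (-0.03). NM_001039701, whose start lies 8511 bases downstream (chr2:24345371-24351491), encodes 178 residues. It was at -0.85 in the SCID pool and at -0.16 in the WT pool, or -0.69 for SCID minus WT (1.62-fold lower in the SCID pool). As background, Il1rn is known to give a secreted antagonist, which carries a signal peptide and is the longer protein, and shorter intracellular forms.

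The gap between the Il1rn transcripts was 1.00 for WT minus line, a gap that 7.23% of the 3598 genes with 2 or more transcripts reached. It was 0.67 for SCID minus WT (reached by 9.20%) and 0.34 for SCID minus line (reached by 46.9%). At 2-fold or more, NM_031167 was the lower one of 7 member transcripts in both pools, where 2.49% of all transcripts were lower in the SCID pool and 2.05% in the WT pool. In GENCODE vM21 the transcripts differ in their first parts, where 140 bases of NM_031167 and 210 bases of NM_001039701 lie in no exon of the other, and NM_031167 also has a longer 3′ end there. In the authors' deposited table both end at the same base, and no source used here says how reads in shared exons were divided.

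The transcripts of Il33 also parted, and in the SCID pool they lay on opposite sides of the line. NM_133775, from the upstream start (chr19:29925114-29960715), was at 0.39 for SCID minus line and at -0.22 for WT minus line, or 0.61 for SCID minus WT (1.52-fold higher in the SCID pool). NM_001164724, which starts 20676 bases downstream (chr19:29945790-29960715), was at -0.20 and -0.37, or 0.18 for SCID minus WT. Both encode the same 266 residues, since the coding part lies in exons they share. Their gap of 0.58 for SCID minus line was reached by 26.2% of genes with 2 or more transcripts, the gap of 0.43 for SCID minus WT by 23.4% and that of 0.15 for WT minus line by 68.3%. In 35.7% of such genes the transcripts lay on both sides of the line in the SCID pool. The first exons by which they differ are 48 bases (NM_133775) and 69 bases (NM_001164724) long, shorter than a read of 75 bases.

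**Figure D3:**
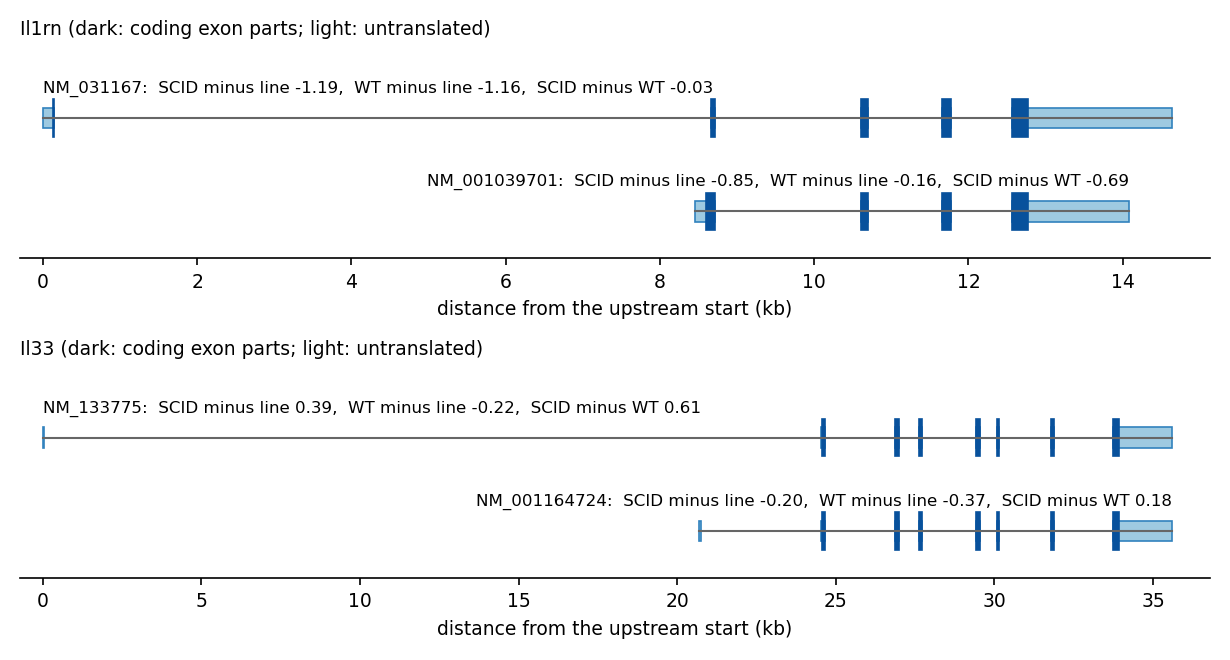
Exons of the 2 transcripts of Il1rn and of Il33 in GENCODE vM21, with distance from the upstream start in kb on the x axis; dark boxes are coding, light boxes untranslated, and each outline has a fixed line width. The printed values show NM_031167 at -1.19 and -1.16 against the line and NM_001039701 at -0.85 and -0.16.

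**Figure D4:**
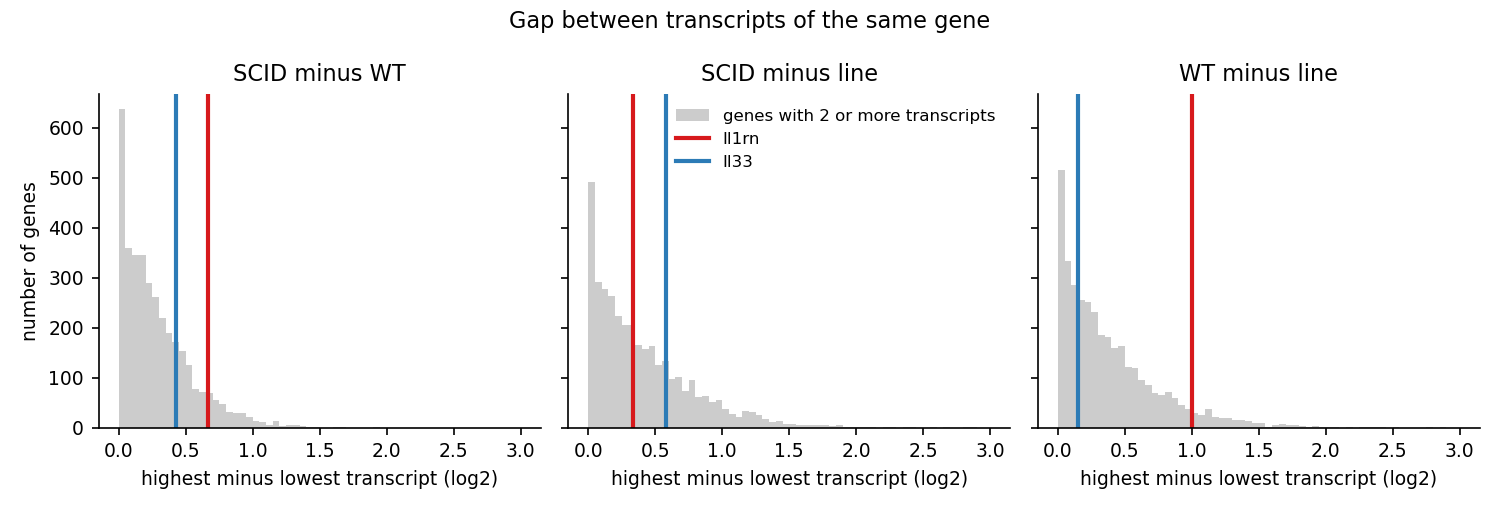
Number of genes (y axis) by the gap between their highest and lowest transcript (x axis, log2), for the 3598 genes with 2 or more transcripts. The gap of Il1rn (1.00) lies in the upper tail for WT minus line, where that of Il33 (0.15) lies below the median of 0.28.

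Csf2, Tnf and Cxcl5 had 1 transcript each. Csf2 (NM_009969) lies on the reverse strand at chr11:54247270-54249899 and encodes 141 residues, Tnf (NM_013693) on the reverse strand at chr17:35199367-35202007 with 235 residues, and Cxcl5 (NM_009141) on the forward strand at chr5:90759298-90761625 with 132 residues. Coordinates are 1-based, with starts as in the authors' deposited table and each end set 1 base below the stop given there. The starts of all 5 genes lay within 1 base of those in GRCm38.p6, although the submitters' processing notes name mm9.

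Among the receptors, Csf2ra, the ligand-binding chain of the GM-CSF receptor and a gene mainly of myeloid cells, was at 0.75 for SCID minus line and at 2.06 for WT minus line. It was 2.49-fold lower in the SCID pool than in the WT pool (-1.32). It was the 1 gene past 2-fold between hosts among the 10 measured of 13 genes of GM-CSF signalling, whose median was -0.17. Over all genes 0.303% were lower and 0.0168% higher in that comparison. Csf2rb, the signalling chain, had no value here. Against the line, 0 of these 10 passed 2-fold in the SCID pool (median 0.46), where 3.65% of all genes were higher and 2.62% lower. In the WT pool, where 4.12% of all genes were higher, 2 did (median 0.63). These were Csf2ra and Socs3, a feedback inhibitor of JAK and STAT signalling, at 1.15.

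Among 20 genes of TNF reception, shedding and adaptors, all measured, 1 passed 2-fold. Tnfrsf1b, a receptor found mainly on immune cells, was at 0.85 for SCID minus line and at 1.45 for WT minus line, or -0.61 between the hosts, a value next to that of Tnf at -0.65. Tnfrsf1a, found on most cells, was at 0.17 and 0.31, and Traf5, an adaptor of TNF family receptors, at -0.56 for SCID minus WT. In the SCID pool Timp3, an inhibitor of the protease that sheds TNF, was at 0.86 against the line. Tnfrsf1b passed 2-fold for WT minus line only, where 4.12% of all genes were 2-fold higher. The list medians were 0.14 for SCID minus line, 0.19 for WT minus line and -0.09 for SCID minus WT.

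Il1r1, the receptor that Il1rn blocks, was higher than in the line by 2.64-fold in the SCID pool (1.40) and by 2.43-fold in the WT pool (1.28), while the mean of Il1rn was lower. Of the Il1rn transcripts, NM_001039701, which encodes the longer protein, was at -0.85 and -0.16, and NM_031167 at -1.19 and -1.16. Il1rap, the chain that Il1r1 signals with, was at 0.87 and 0.89. Of 26 listed genes of the interleukin-1 family and its adaptors 11 were measured, and Il1a, Il1b and Il1rl1 had no value here. Il18bp, which neutralizes interleukin-18, was at 0.91 and 1.05 against the line. Of the 11, 1 was 2-fold above the line in the SCID pool (all genes: 3.65%) and 3 in the WT pool (4.12%). None passed 2-fold between hosts, where 0.303% of all genes were lower and 0.0168% higher. Myd88, the adaptor of interleukin-1 and Toll-like receptors, was at -0.34 and Il18rap, an interleukin-18 receptor chain, at -0.30.

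None of the 9 listed relatives and receptors of Cxcl5, Cxcl1, Cxcl2 and Cxcr2 among them, had a value here. Of 29 other chemokines 5 were measured. Ccl9, a chemokine made by myeloid cells, was at 0.72 for SCID minus line and at 2.60 for WT minus line, and 3.67-fold lower in the SCID pool than in the WT pool. Ccl25, known as a chemokine of thymus and gut, was at 0.30 for SCID minus line. The median of the 5 was -0.01 between hosts.

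Among 14 measured of 59 other cytokines, 3 were above the line by 2-fold in the SCID pool, against 3.65% of all genes. In the WT pool 4 were, against 4.12%, and the medians were 0.26 and 0.38. Lif, a member of the interleukin-6 family, was at 1.13 and 1.11, Csf1, the macrophage growth factor, at 1.02 and 1.13, and Spp1 (osteopontin) at 1.37 and 1.02. Tnfsf13 (APRIL) was at 0.92 and 1.19. None passed 2-fold between the hosts, where 0.303% of all genes were lower and 0.0168% higher. Spp1, at 0.35 between the hosts, was on the side of Csf2, and Tnfsf12 (TWEAK), at -0.41, on the side of Tnf.

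Among genes of transcription factors known to act on cytokine genes, some AP-1 genes were past 2-fold against the line and most NF-kB genes were not. Of 12 measured of 15 AP-1 and NFAT genes, 5 were 2-fold higher in the SCID pool (median 0.84), against 3.65% of all genes, and 5 in the WT pool (median 0.85), against 4.12%, with Atf3 at 2.22 and 1.95 and Fosb at 2.15 and 1.96. In both pools these were Fos, Fosb, Jun, Atf3 and Nfat5. All but Nfat5 are also in the list of dissociation and immediate-early genes given below. The median of the AP-1 and NFAT genes between the hosts was 0.08, with Nfatc2 at -0.39 and Fosl2 at -0.29. Of 18 measured of 19 NF-kB genes, Nfkbia, the feedback inhibitor, was at 1.04 and 1.24, while Traf3 was at -0.20 and -0.12. Nfkbia was the 1 gene past 2-fold in the SCID pool, and with Nfkbie at 1.11 made 2 in the WT pool. Of the 18, 3 were above 0 for SCID minus WT, with a median of -0.15 against -0.004 over all genes. Rel was at -0.49 and Chuk, an IkB kinase, at 0.42. In the same comparison 2 of 10 GM-CSF genes, 5 of 20 TNF genes and 2 of 11 interleukin-1 genes were above 0. So were 8 of 12 AP-1 and NFAT genes and 11 of 17 regulators of cytokine mRNA decay. The share of all genes above 0 was not counted, and their median of -0.004 lay just below 0. These counts are a description of lists chosen with earlier results known, and were not tested.

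Regulators of cytokine mRNA decay were measured in full. Zfp36, which binds the ATTTA repeats printed above for Csf2 and Tnf, was at 1.38 for SCID minus line and at 1.68 for WT minus line, on the same side of the line as both. Its relative Zfp36l1 was at 1.43 and 1.36. Of the 17 genes, 2 were 2-fold above the line in the SCID pool (median 0.26), against 3.65% of all genes. In the WT pool 3 were (median 0.13), against 4.12%. None passed 2-fold between hosts, where 0.303% of all genes were lower and 0.0168% higher. Cnot7, a deadenylase subunit, was at 0.33 between hosts and Zc3h12a (regnase-1) at -0.31.

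Markers of some other cells also differed between the pools. All 5 measured of 24 macrophage and monocyte markers were lower in SCID than in WT, as Tnf, Tnfrsf1b and Csf2ra were, with a median of -0.89: Apoe was at -1.75, Cd68 at -1.26, Mertk at -0.89, Mrc1 at -0.82 and Cd14 at -0.80. Their medians against the line were 0.41 in the SCID pool and 1.24 in the WT pool, while Ptprc, Adgre1 and Csf1r had no value here. Csf2 and Il33 went the other way between hosts, and so did the fibroblast marker Col1a1 (0.71) and Mcpt8 (0.53). Mcpt8, a basophil protease, was the 1 measured of 10 mast cell and basophil markers. It was at 1.53 for SCID minus line and at 1.00 for WT minus line. The other measured fibroblast markers, Has1 and Ly6c1, were at 0.06 and -0.41 between the hosts. The 4 measured endothelial markers lay between -0.29 and 0.19. The part of these cells in the result was not tested, and without levels per library no marker can be shown to be at 0.

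Against the line, 12 of 21 measured dissociation and immediate-early genes were 2-fold higher in the SCID pool (median 1.38), against 3.65% of all genes. In the WT pool 13 were (median 1.53), against 4.12%, beside Csf2, Tnf and Cxcl5 in both pools. This list shares Fos, Fosb, Jun, Junb, Jund, Atf3, Zfp36 and Socs3 with the lists above, so it is not separate from them. Fos was at 2.05 and 1.89, Jun at 2.01 and 1.79, and Hspa1a at 1.67 and 2.04. The tumour cells were taken from tissue and sorted, and no such step is given for the line, so growth in a mouse and handling cannot be told apart. The 3 measured of 18 fibroblast markers had medians of 1.61 and 1.55 and the 4 measured of 14 endothelial markers 1.17 and 1.23, with Col1a1 (type I collagen) at 2.61 and 1.90 and Flt1 at 1.63 and 1.66. None of 14 neutrophil markers had a value, and 3 of 22 lymphocyte markers (Foxp3, Tcf7 and Eomes) lay between 0.01 and 0.02 for SCID minus WT. Of 14 epithelial markers of the tumour 13 were measured, with medians of -0.26 in the SCID pool and -0.10 in the WT pool. Epcam was at 1.25 and 1.59, Sox9 at 1.28 and 1.11 and Krt7 at -1.18 and -0.99. Cytokine RNA of the tumour cells and of any host cells left in the sorted fraction cannot be told apart.

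**Figure D5:**
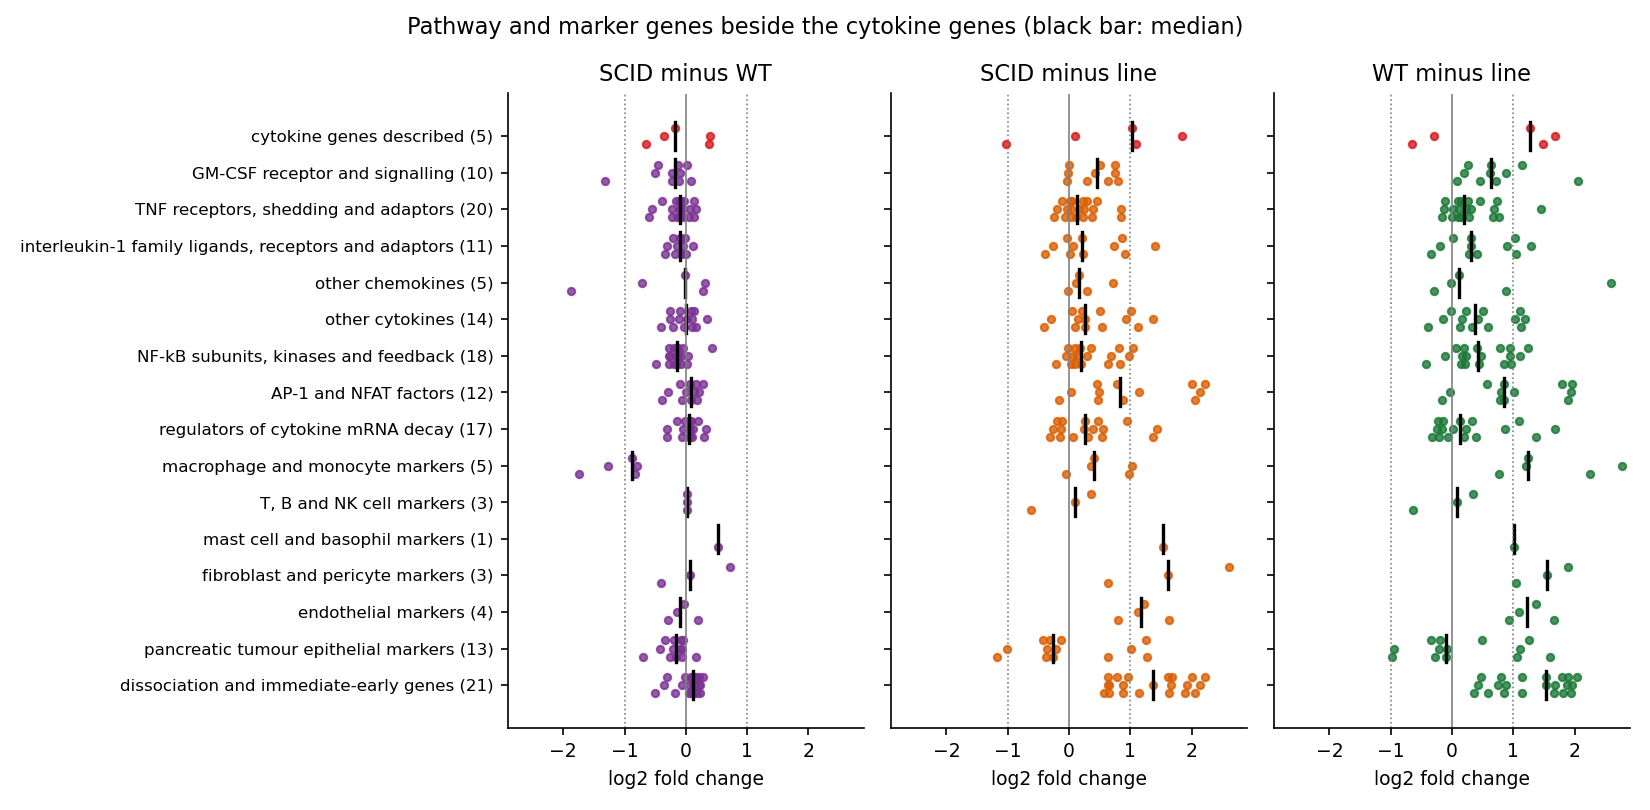
Each point is a measured gene of a list and each black bar the list's median, as log2 fold changes (x axis) in 3 panels, with the number of genes in brackets. In the SCID minus WT panel the 5 macrophage and monocyte markers lie between -1.75 and -0.80, and in the other panels the immediate-early genes all lie above 0.

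The genes nearest to each cytokine gene were found by their distance over SCID minus line and WT minus line, that is, over 2 differences among 3 libraries. Nearest to Csf2 were the matrix genes Spon1 (distance 0.022), Col6a1 (0.053) and Adamts4 (0.066). Nearest to Tnf were Tppp3 (0.071), Dennd1a (0.073) and Fcna (0.081), a ficolin gene of macrophages. Il1rn had Wdr62 (0.030), the keratin gene Krt80 (0.042) and Deptor (0.052), an inhibitor of mTOR. Il33 had Gulp1 (0.011), Zfp808 (0.012) and Itih5 (0.022), and Cxcl5 had Kdm6b (0.026), a histone demethylase, Rasa4 (0.038) and Adamtsl4 (0.043). With so few values many genes lie close together, and likeness here is no more than these numbers.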

How the data were processed

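RNA was measured by sequencing in 3 libraries: GFP-positive cells sorted from SCID tumours (5 pooled), from WT tumours (6 pooled), and the cultured line. Per the labels' protocols, stranded poly(A) libraries were read in pairs of 75 bases to a stated mean depth of 40M reads per sample. The deposited table holds log2 fold changes for 17910 RefSeq transcripts; the submitters' processing notes list BWA, Partek, R 3.5.1, DESeq2 1.20.0 and mm9, with no role or order. No source used here says how the fold changes were made, shrunk or filtered, and values ran only from -2.49 to 2.77. The third column names only the SCID side; it equalled SCID minus line less WT minus line within 1e-12 in all 17910 transcripts and was used as SCID minus WT.

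Gene values are means over transcripts. A gene counts as higher or lower at 2-fold. The 5 genes, 9 pathway lists and 8 marker lists were chosen with earlier results of these data known. Named genes are the 5 genes, the 3 nearest genes to each (unnamed gene models left out), the 2 highest and 2 lowest past 2-fold per pathway list and comparison (or the 2 farthest from 0), and up to 4 markers per list past 2-fold; other names were chosen after their values were seen. No test was made, with 1 library per group. Python 3.11.15, pandas 2.3.3 and numpy 2.4.6 were used, and the scripts were tested on simulated data. Alternatives were other ways to join transcripts, centring, other thresholds and a correction for GC content and length (quadratic), with GENCODE vM21 sequence for 93.2% of transcripts.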

Additional observations from a re-analysis of the deposited data

Results flagged for a closer look

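Il33 stood on opposite sides of the line in the hosts, at 0.10 for SCID minus line and at -0.30 for WT minus line, which makes 0.39 for SCID minus WT. The same held for its transcript NM_133775, at 0.39 and -0.22, or 0.61 for SCID minus WT, but not for its other transcript NM_001164724, which lay below the line in both, at -0.20 and -0.37. Both gene values against the line were near 0, inside the pooled SD between transcripts (0.33 and 0.31). With 1 library per group the difference was not tested.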

How the results depend on the processing

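Of 105 values of the 5 genes under an alternative, 99 moved by less than the pooled SD between transcripts. The other 6 moved by more, all of Il1rn. Many of the 105 could not move. Csf2, Tnf and Cxcl5 have 1 transcript each, so other ways to join transcripts left them unchanged by construction. For Il1rn and Il33 the median and the coding-only mean equal the main value, so the 99 is no measure of stability. With the transcript farthest from 0, or the lower one alone, Il1rn was at -0.69 for SCID minus WT and at -1.16, past 2-fold, for WT minus line; with the higher one alone it was at -0.027 and -0.16. For SCID minus line Il1rn was inside 2-fold at -0.85 on NM_001039701 and at -0.95 without the GC and length trend, which also put Cxcl5 at -0.33 for SCID minus WT and Il33 at -0.18 for WT minus line, and Il33 changed sides to -0.20 on NM_001164724. At 1.5-fold, 1 member was lower for SCID minus WT (Tnf) and 1 for WT minus line (Il1rn); at 4-fold 0 members passed in any comparison. Over all genes, higher and lower, the 1.5-fold counts were 21 and 131 (SCID minus WT), 1311 and 1121 (SCID minus line) and 1339 and 994 (WT minus line), and the 4-fold counts 0 and 0, 16 and 4, and 26 and 5. Counting the 17910 transcripts in place of the 11886 genes gave 5 higher and 47 lower for SCID minus WT. It gave 718 higher and 446 lower for SCID minus line, and 774 higher and 367 lower for WT minus line. These counts have a larger total. As shares, lower calls for SCID minus line were 2.49% of transcripts against 2.62% of genes. For WT minus line they were 2.05% against 2.03%. The pathway lists held 107 measured genes together. At 1.5-fold 4 of the 107 were lower for SCID minus WT, against 131 of all 11886 genes. Against the line 31 were higher in the SCID pool and 41 in the WT pool, against 1311 and 1339 of all genes. At 2-fold these 3 list counts were 2, 12 and 21. Of 50 measured marker genes, 1 was higher and 6 were lower at 1.5-fold for SCID minus WT, against 21 and 131 of all genes. For SCID minus line 34 were higher, against 1311 of all genes. For WT minus line 35 were higher and 3 lower, against 1339 and 994. At 2-fold 22 and 28 markers were higher in the SCID and WT pools. After centring, 1 marker was lower at 2-fold for SCID minus line, against 2 before. No replicate could be left out. No paired analysis was possible because each group had 1 library. The table gives no depth, so low counts behind any value cannot be seen.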

Other observations

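The neighbours of the cytokine genes on their chromosomes were taken as the nearest measured gene on each side. Beside Csf2 on chromosome 11, Acsl6, a fatty acid ligase gene, was at 0.53 for SCID minus line and at 0.28 for WT minus line, and P4ha2, a collagen prolyl hydroxylase gene, at 0.72 and 0.61. Beside Tnf on chromosome 17, Nfkbil1 was at -0.18 and 0.05 and Prrc2a at -0.19 and -0.13. Beside Il1rn on chromosome 2, Psd4 was at -0.36 and 0.13, or -0.49 for SCID minus WT against -0.36 for Il1rn, and Spopl, 765 kb away, was at 0.03 and 0.06, or -0.03 for SCID minus WT. Beside Cxcl5 on chromosome 5, Rassf6 was at -0.38 and -0.19 and Mthfd2l at 0.09 and -0.11, and beside Il33 on chromosome 19, Uhrf2 was at 0.17 and 0.02 and Ranbp6 at 0.05 and 0.04. Distances were 16.2 kb between Il1rn and Psd4, 18.2 kb between Tnf and Nfkbil1, and 34.5 kb or more for the others, and genes with no value here may lie between.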
